A study of Oryctolagus cuniculus with 16 samples.

Results

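The elastic fiber and lysyl oxidase genes are the genes for elastin (*ELN*), for fibrillins (*FBN1* and *FBN2*), fibulins (*FBLN1* and *FBLN5*) and the glycoprotein *EMILIN1*, which build elastic fibers and their microfibrils, and for the enzymes that cross-link elastin and collagen (*LOX*, *LOXL1*, *LOXL2* and *LOXL4*). They were taken by gene symbol from a gene table of rabbit femoral heads, and all 10 were found among its 20255 genes. The study compared RNA of a rabbit model of Perthes disease, a childhood osteonecrosis of the femoral head, with that of control rabbits. The model cuts off the blood supply of the femoral head. At 8 weeks of age, the ligamentum teres was severed and the femoral neck tied off in an open hip operation. The 5 model rabbits carry the genotype label Perthes' disease and the 3 controls the label WT, although the model is surgical. The age of the controls, any sham operation and the time from surgery to sampling are not given in the sources used here. The third control has the number 2 in its title and the code TD-3, and is called control rabbit 3.

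Total RNA depleted of ribosomal RNA was sequenced from each of the 8 femoral heads. The libraries held 26757087 to 29461482 counts, with a median of 29137905 in the Perthes group and 27586064 in the control group. Levels are given as CPM, counts relative to a library total that was scaled by TMM factors, which adjust for differences in RNA composition. A CPM value sets the same gene side by side across rabbits, and levels of different genes are not compared because no transcript lengths were at hand. A marker list is said to be led by the gene with the highest mean CPM over the 8 rabbits, which gives most to the sum but need not do so in each rabbit. Changes between the groups are log2 fold changes, Perthes against control, with their standard error (SE) from edgeR's quasi-likelihood test and a p adjusted by the Benjamini-Hochberg method over 15305 tested genes. A gene is said to have risen or fallen where that adjusted p was below 0.05. The RNA came from whole tissue, so fewer cells of a type and less RNA per cell cannot be told apart. Sequencing batches are not named in the labels, and none could be compared.

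Elastic fibers consist of a core of cross-linked elastin on a scaffold of fibrillin microfibrils, and give recoil to ligaments, vessel walls and joint capsules. Fibulins and EMILIN1 sit between core and scaffold and help elastin to assemble, while lysyl oxidases are copper enzymes that oxidize lysines so that elastin and collagen chains become covalently joined. In cartilage and bone, microfibrils also occur without elastin, and lysyl oxidases act mostly on fibrillar collagen.

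Of the 10 genes, *ELN*, *LOXL1*, *FBN1* and *EMILIN1* rose in the Perthes femoral heads, and 0 fell. Among all tested genes, edgeR's test called 6.21% higher and 8.86% lower at the same threshold. At an unadjusted p below 0.05, 6 of the 10 genes were higher and 0 lower, beside 15.3% and 16.6% of all tested genes, and DESeq2 also called 6 higher and 0 lower at an adjusted p below 0.05, beside 8.4% and 9.47% of all genes, adding *FBLN5* and *LOXL2*. The log2 fold change was positive in 9 genes and negative in 1, with a median of 1.18, beside a median of 0.0249 over all tested genes. In the same 4 genes every Perthes rabbit lay above every control, as in 11.2% of all tested genes, and in 0 of the 10 did every Perthes rabbit lie below every control, against 13.9% of all tested genes. These counts and medians describe the genes listed here, and nothing particular to the list is called from them. Leaving out 1 rabbit ended calls over all genes and not only here: without Perthes rabbit 3, or without Perthes rabbit 5, edgeR called 2 of the 10 higher, beside 2.53% and 2.3% of all tested genes, and without control rabbit 1 or control rabbit 2 it called 0, beside 0.467% and 0% of all. At an unadjusted p below 0.05, 5 and 6 of the 10 were then higher, beside 11.9% and 10.4% of all. The sign of each gene's change was the same with TMM factors, DESeq2 size factors and library totals alone.

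**Figure D1:**
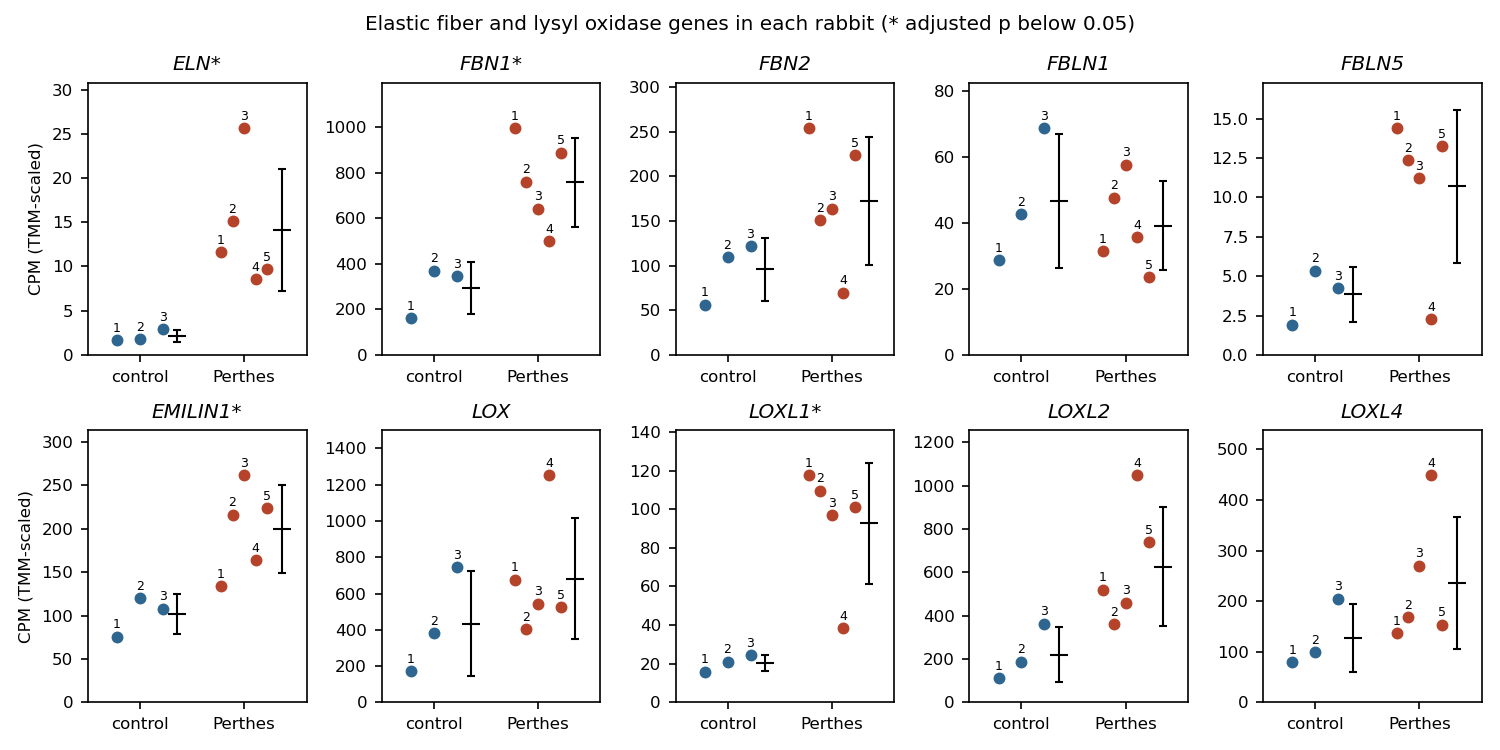
Levels of the 10 elastic fiber and lysyl oxidase genes, in TMM-scaled CPM on linear axes that start at 0, in control rabbits 1 to 3 (blue) and Perthes rabbits 1 to 5 (red), numbered; the horizontal line and bar give mean and SD, and an asterisk marks an adjusted p below 0.05. In *ELN*, *FBN1*, *EMILIN1* and *LOXL1* the points of the groups do not overlap.

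Elastin is the rubber-like protein of the fiber core, and its messenger had the largest fold change of the 10 genes. *ELN* (gene ID 100344271) stood at 11.6, 15.1, 25.7, 8.59 and 9.67 CPM in Perthes rabbits 1 to 5, and at 1.68, 1.80 and 2.89 CPM in control rabbits 1 to 3. The groups did not overlap, Perthes rabbit 3 was the highest, and the lowest Perthes value, in rabbit 4, was still above the highest control. The Perthes mean of 14.1 ± 6.91 CPM (SD, n = 5) was 6.66 times the control mean of 2.12 ± 0.669 CPM (SD, n = 3), a rise with a log2 fold change of 2.73 (SE 0.43) and an adjusted p of 0.0121 in edgeR's quasi-likelihood test. These levels rest on 236 to 699 counts per Perthes library and 47 to 87 per control library. Without control rabbit 1 the adjusted p by Benjamini-Hochberg in edgeR was 0.0514 and without control rabbit 2 it was 0.0519, with log2 fold changes of 2.59 and 2.62, and over all alternatives it ranged from 4.9e-09 to 0.0784.

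The table lists a further gene model described as elastin, LOC103344988, which has no entry of its own in the RefSeq table of assembly mOryCun1.1. Its levels were 25.3, 28.9, 49.5, 16.7 and 20.7 CPM in Perthes rabbits 1 to 5 and 4.86, 5.96 and 8.31 CPM in the controls. Perthes rabbit 3 was again the highest and rabbit 4 the lowest of the Perthes group, and all 5 lay above the controls. It rose by a log2 fold change of 2.14 (SE 0.38), with an adjusted p of 0.0134 in edgeR's test with Benjamini-Hochberg adjustment. How reads were divided between this model and *ELN* depends on the authors' quantification. In an alternative chosen after seeing the data, reads of the further models were added to the named gene, and *ELN* then rose by 2.32 on the log2 scale with an adjusted p of 0.0131 by the same test.

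Fibrillins are long glycoproteins that polymerize into the microfibrils on which elastin is laid down. *FBN1* (gene ID 100350931), the fibrillin altered in Marfan syndrome, was present at 997, 760.2, 642, 499 and 888 CPM in Perthes rabbits 1 to 5. Its controls had 162, 370.5 and 346 CPM. Every Perthes rabbit exceeded every control, with rabbit 4 the nearest to them and control rabbit 1 well below the other controls. Its mean rose 2.59-fold, to 757 ± 197 CPM (SD, n = 5) above a control mean of 293 ± 114 CPM (SD, n = 3), and edgeR's quasi-likelihood test with Benjamini-Hochberg adjustment gave a log2 fold change of 1.37 (SE 0.34) and an adjusted p of 0.0299. This call was lost when 1 of 5 rabbits was left out, with an adjusted p in edgeR of 0.0567 without Perthes rabbit 3, 0.0674 without Perthes rabbit 5, and 0.0839, 0.0713 and 0.0520 without control rabbits 1, 2 and 3. Over all alternatives its log2 fold change lay between 1.08 and 1.58 and its adjusted p between 0.00076 and 0.165. RefSeq places 2 lncRNA genes, absent from the counts, over *FBN1*, and whether the counting used strand is not given in the sources used here.

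*FBN2* (gene ID 100357126), the fibrillin best known from early development, measured 254, 151, 164, 69.5 and 223 CPM in Perthes rabbits 1 to 5 and 56.1, 109.6 and 122 CPM in control rabbits 1 to 3. The groups overlapped, since 4 Perthes rabbits lay above all controls and rabbit 4 lay between control rabbits 1 and 2. The means were 172 ± 71.4 CPM (SD, n = 5) and 95.9 ± 35.0 CPM (SD, n = 3), and the log2 fold change of 0.85 (SE 0.42) had an adjusted p of 0.195 in edgeR's test with Benjamini-Hochberg adjustment. A p above the threshold does not show that the level was unchanged. In each of the 15 alternatives the change was positive and not called, with an adjusted p of 0.0536 to 0.450.

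Fibulins are small proteins with calcium-binding repeats that link elastin to its partners. *FBLN5* (gene ID 100347343), which binds both elastin and LOXL1 and brings them to the microfibril, had 14.4, 12.4, 11.2, 2.29 and 13.2 CPM in Perthes rabbits 1 to 5 and 1.93, 5.36 and 4.26 CPM in the controls. Perthes rabbits 1, 2, 3 and 5 had more than any control, while rabbit 4 lay within the control range. The Perthes group averaged 10.7 ± 4.85 CPM (SD, n = 5) and the controls 3.85 ± 1.75 CPM (SD, n = 3). This corresponds to a log2 fold change of 1.48 (SE 0.57), with an adjusted p of 0.108 in edgeR's test, so that the gene was not called. DESeq2 gave an adjusted p of 0.0332. Without Perthes rabbit 4, edgeR gave a log2 fold change of 1.73 with an adjusted p of 0.0155, and over all alternatives the adjusted p ranged from 0.0155 to 0.288.

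*FBLN1* (gene ID 100347379), a fibulin of elastic fibers and basement membranes, was the only 1 of the 10 genes with a negative log2 fold change. It was counted at 31.6, 47.7, 57.7, 35.6 and 23.7 CPM in Perthes rabbits 1 to 5 and at 28.7, 42.8 and 68.9 CPM in control rabbits 1 to 3. The groups overlapped almost completely, and the highest rabbit of all was control rabbit 3. Its log2 fold change was -0.25 (SE 0.34) with an adjusted p of 0.643 in edgeR's test with Benjamini-Hochberg adjustment, and without control rabbit 3 it was 0.14 with an adjusted p of 0.819. A further model described as fibulin-1, LOC103346332, had a log2 fold change of -0.35 and an adjusted p of 0.490 in the same test.

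EMILIN1 is a glycoprotein at the interface of elastin and microfibrils. *EMILIN1* (gene ID 100352142) reached 134, 216, 261, 164 and 224 CPM in Perthes rabbits 1 to 5 and 75.7, 120.2 and 108 CPM in the controls. The groups did not overlap, though Perthes rabbit 1 lay close to control rabbit 2. The mean rose 1.97-fold above a control mean of 101 ± 23.0 CPM (SD, n = 3), to 199.8 ± 50.7 CPM (SD, n = 5), with a log2 fold change of 0.98 (SE 0.26) and an adjusted p of 0.0375 in edgeR's test with Benjamini-Hochberg adjustment. Leaving out any rabbit other than Perthes rabbits 1 and 4 ended the call, with an adjusted p in edgeR of 0.0538, 0.0795 and 0.0841 without Perthes rabbits 2, 3 and 5, and of 0.132, 0.0859 and 0.0736 without control rabbits 1, 2 and 3. The log2 fold change stayed between 0.81 and 1.12 over all alternatives and the adjusted p between 0.0037 and 0.137.

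Lysyl oxidases begin the cross-linking of elastin and collagen outside the cell. *LOXL1* (gene ID 100351128), the family member most closely tied to elastin through its binding to fibulin-5, was found at 118, 109.6, 96.8, 38.6 and 101 CPM in Perthes rabbits 1 to 5 and at 15.9, 21.1 and 24.5 CPM in control rabbits 1 to 3. All 5 Perthes rabbits were above all 3 controls, and rabbit 4 stood apart from the other Perthes rabbits toward the control range. The control mean was 20.5 ± 4.32 CPM (SD, n = 3) and the Perthes mean, which rose 4.53-fold, was 92.7 ± 31.3 CPM (SD, n = 5), with a log2 fold change of 2.18 (SE 0.36) and an adjusted p of 0.0128 in edgeR's quasi-likelihood test with Benjamini-Hochberg adjustment. As for *ELN*, the call was lost without control rabbit 1 and without control rabbit 2, where the log2 fold changes were 2.03 and 2.20 and the adjusted p in edgeR 0.0521 and 0.0530. Over all alternatives the adjusted p ranged from 1.5e-07 to 0.0933.

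*LOX* (gene ID 100357045), the founding member of the family and the main cross-linker of fibrillar collagen, had 677, 403, 544, 1251 and 526 CPM in Perthes rabbits 1 to 5. In control rabbits 1 to 3 it had 173, 383 and 745 CPM. Only Perthes rabbit 4 exceeded control rabbit 3, and the highest control was 4.30 times the lowest. With means of 680.1 ± 333 CPM (SD, n = 5) and 434 ± 289 CPM (SD, n = 3), the log2 fold change of 0.65 (SE 0.50) had an adjusted p of 0.407 in edgeR's test with Benjamini-Hochberg adjustment. It moved from 0.27 without control rabbit 1 to 1.29 without control rabbit 3, where the adjusted p was 0.133, and the gene was called in 0 of the 15 alternatives, DESeq2 among them, although without control rabbit 3 the unadjusted p in edgeR was 0.0366.

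*LOXL2* (gene ID 100346678) encodes a lysyl oxidase with scavenger receptor domains that also acts on basement membrane collagen. Its levels were 521, 361, 459.5, 1047 and 739.7 CPM in Perthes rabbits 1 to 5 and 112, 187 and 363 CPM in the controls. The groups touched at a single point, where Perthes rabbit 2 lay just under control rabbit 3, and Perthes rabbit 4 was the highest. Between means of 626 ± 274 CPM (SD, n = 5) and 221 ± 129 CPM (SD, n = 3), the change on the log2 scale was 1.502 (SE 0.47) with an adjusted p of 0.0597 in edgeR's test with Benjamini-Hochberg adjustment, which does not pass the threshold. The adjusted p was 0.00722 in DESeq2, 0.0430 in edgeR without Perthes rabbit 2 and 0.0339 in edgeR without control rabbit 3, and over all alternatives it ranged up to 0.224. A further model described as LOXL2-like, LOC103347318, rose by a log2 fold change of 1.47 (SE 0.40) with an adjusted p of 0.0382 in edgeR's test, and its groups did not overlap. That model had 36.6 to 97.4 CPM in the Perthes group and 13.1 to 33.2 CPM in the control group, with Perthes rabbit 4 again the highest, and the split of reads between it and *LOXL2* depends on the authors' quantification.

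*LOXL4* (gene ID 100357674), a close relative of *LOXL2*, was read at 136, 168, 269.8, 448 and 154 CPM in Perthes rabbits 1 to 5 and at 79.1, 98.9 and 205 CPM in control rabbits 1 to 3. The groups overlapped, and only Perthes rabbits 3 and 4 were above all controls. Its log2 fold change of 0.88 (SE 0.47) had an adjusted p of 0.230 in edgeR's test with Benjamini-Hochberg adjustment. It was 0.51 without Perthes rabbit 4 and 1.40 without control rabbit 3, and the gene was called in 0 of 15 alternatives, with an unadjusted p in edgeR of 0.0235 in the last of these and of 0.0591 in DESeq2.

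The rabbits of a group did not keep the same order from gene to gene. Control rabbit 1 was the lowest control for all 10 genes, and control rabbit 3 the highest for 7. Among the Perthes rabbits, rabbit 4 was the highest for *LOX*, *LOXL2* and *LOXL4* and the lowest for *ELN*, *FBN1*, *FBN2*, *FBLN5* and *LOXL1*. Rabbit 1 was the highest Perthes rabbit for *FBN1*, *FBN2*, *FBLN5* and *LOXL1*, and rabbit 3 for *ELN*, *FBLN1* and *EMILIN1*. Perthes rabbit 4 also stood apart over all tested genes, at 78.4 on the second principal component of log2 CPM, which held 13.1% of the variance, while the other 7 rabbits lay between -27.5 and 7.51.

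The summed cartilage and bone cell markers were also highest in Perthes rabbit 4. The chondrocyte list (7 of 8 genes in the table, led by *COL2A1*) summed to 34366, 41060.5, 77073, 139633 and 60324 CPM in Perthes rabbits 1 to 5 and to 47364, 45858 and 64977 CPM in control rabbits 1 to 3. Perthes rabbit 4 had the highest sum and control rabbit 3 the highest of the controls, as for *LOX*, *LOXL2* and *LOXL4*. The same held for the sum of osteoblast markers (7 of 7 in the table, led by *IBSP*, none at 0), at 1642, 1746, 2157.5, 3034 and 1765 CPM in the Perthes rabbits and 1093, 1547 and 2124 CPM in the controls. *IBSP* gave 1749 CPM of that sum in Perthes rabbit 4. In the Perthes group rabbit 4 was also the highest for *ALPL*, *RUNX2* and *DMP1*, but rabbit 3 for *SP7* and *PHEX*. *BGLAP* ran the other way, with Perthes rabbit 4 the lowest of all rabbits at 50.3 CPM. Over both groups, control rabbit 3 was the highest for *SP7*, *RUNX2* and *DMP1*, so the order of the osteoblast sum does not hold for each marker. In edgeR's test 0 of the 6 tested chondrocyte markers passed, with 2 higher at an unadjusted p below 0.05, beside 15.3% of all tested genes, and 0 called by DESeq2. All 6 log2 fold changes were positive, with a median of 1.0, and *MATN1* was at 0 in control rabbit 3. Of the 7 osteoblast markers 0 passed in edgeR, 2 were higher at an unadjusted p below 0.05 and 1 was called higher by DESeq2, beside 8.4% of all genes, and their median log2 fold change was 0.0581. The part of cartilage and bone cell content in the levels of the lysyl oxidases was not tested.

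Smooth muscle and fibroblast markers were read because both cell types make elastic fibers. The vascular smooth muscle list (6 of 7 genes in the table, led by *NOTCH3*, none at 0) summed to 454, 400.6, 636, 439 and 679 CPM in Perthes rabbits 1 to 5 and to 206, 291 and 293.5 CPM in the controls, without overlap. Of its 6 tested genes 1 rose, the contractile actin gene *ACTA2*, with a log2 fold change of 3.57 (SE 0.62) and an adjusted p of 0.0133 in edgeR's test with Benjamini-Hochberg adjustment. The fibroblast list (all 7 genes in the table, led by *COL1A1*) summed to 69071, 157124, 140424, 84864 and 93103 CPM in the Perthes group and to 74133, 93656 and 90378 CPM in the control group, which overlapped. Of its 6 tested genes 1 rose, *COL3A1*, with a log2 fold change of 2.34 (SE 0.67) and an adjusted p of 0.0474 in the same test, while *LUM* and *DPT*, with log2 fold changes of 2.01 and 2.40, did not pass it (adjusted p 0.0603 and 0.0731). Each of these 3 genes was above every control in every Perthes rabbit, as were 11.2% of all tested genes, although the sum was not. *PI16* was at 0 in some libraries. DESeq2 called 3 genes of each list higher and 0 lower, beside 8.4% and 9.47% of all genes, and the median log2 fold changes were 0.688 for the smooth muscle and 1.31 for the fibroblast list, beside 0.0249 over all tested genes. As edgeR called 6.21% of all tested genes higher, 1 of 6 is not read as a result about either list. The part of these cells in the rise of *ELN*, *FBN1*, *EMILIN1* and *LOXL1* was not tested.

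The other markers describe the tissue that was sampled. Endothelial markers (6 of 6 in the table, led by *PECAM1*) summed to 278 to 409.8 CPM in the Perthes group and 296 to 386 CPM in the control group, and adipocyte markers (4 of 6, led by *ADIPOQ*, with *LEP* at 0 in some libraries) to 62.5 to 698 and 234 to 473 CPM, both with overlap. Tendon, ligament and synovial markers (4 of 5, led by *PRG4*, with *TNMD* at 0 in some libraries) lay at 149 to 841 and 197 to 1142 CPM. Skeletal muscle markers (5 of 8, led by *MYBPC1*, with *MYLPF* at 0 in some libraries) lay at 8.29 to 26.2 and 8.89 to 20.3 CPM. Sums of marrow cell markers were lower in the Perthes group: neutrophil markers (5 of 6, led by *LTF*) summed to 17.8 to 1092 CPM in the Perthes group and 3561 to 13533 CPM in the control group, erythroid markers (6 of 6, led by *SLC4A1*) to 28.5 to 1852 and 3909 to 4645 CPM, and B cell markers (5 of 6, led by *CD79B*, with *VPREB1* at 0 in some libraries) to 5.20 to 24.4 and 25.0 to 41.9 CPM, each without overlap, although the B cell sums nearly met. In edgeR's test 2 of 5 neutrophil, 1 of 6 erythroid and 1 of 4 tested B cell markers fell, beside 8.86% of all tested genes. DESeq2 called 5, 4 and 2 of them lower, beside 9.47% of all genes, and at an unadjusted p below 0.05 in edgeR 5, 6 and 3 were lower, beside 16.6%. Every Perthes rabbit was below every control for all 5 neutrophil and all 6 erythroid markers and for 1 of 4 tested B cell markers, beside 13.9% of all tested genes. CPM are shares of a library, and the part of these lower marrow markers in the levels of the other genes was not tested.

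Ratios between genes in the same rabbit hardly depend on how the libraries are scaled. Of 4 ratios, each the log2 ratio of CPM with 0.5 CPM added, the ratio of *FBN2* to *FBN1* asks whether the fibrillins changed alike. It was -1.97, -2.33, -1.97, -2.83 and -1.99 in Perthes rabbits 1 to 5 and -1.52, -1.75 and -1.50 in the controls. Every Perthes rabbit was below every control, with rabbit 4 the lowest, so that the share of *FBN2* beside *FBN1* was smaller in each of them. The mean log2 ratio was -2.22 ± 0.38 (SD, n = 5) against -1.59 ± 0.14 (SD, n = 3), and the difference of -0.63 had p = 0.0357 in an exact two-sided permutation test over the 56 divisions of the rabbits into 5 and 3, the smallest p this test can give. Adjusted over the 4 ratios by the Benjamini-Hochberg method, that permutation p was 0.0714 and did not pass the threshold.

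The ratio of *LOXL2* to *LOX* compares a pair of lysyl oxidases. Its log2 values were -0.38, -0.16, -0.24, -0.26 and 0.49 in Perthes rabbits 1 to 5 and -0.62, -1.03 and -1.04 in the controls, again without overlap and now with every Perthes rabbit above. Perthes rabbit 4, the highest for both genes, did not stand out in their ratio, whereas rabbit 5 did. The difference of 0.79 corresponds to a 1.73-fold higher ratio and also had p = 0.0357 in the exact two-sided permutation test and 0.0714 after adjustment. Leaving out a Perthes rabbit raises the smallest possible p to 0.0571 and leaving out a control to 0.0952, so no such alternative can pass.

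Elastin core against microfibril was read from the ratio of *ELN* to *FBN1*. Its log2 values were -6.36, -5.61, -4.62, -5.78 and -6.45 in the Perthes rabbits and -6.22, -7.33 and -6.68 in the controls. Control rabbit 1 lay above Perthes rabbits 1 and 5, and the difference of 0.98 had p = 0.107 in the exact two-sided permutation test, or 0.143 adjusted. Its size depended on the constant, since *ELN* in the controls was low: with 2 CPM added the difference was 0.47 (permutation p 0.464) and with 0.1 CPM it was 1.18 (permutation p 0.0714). *LOX* against *COL1A1*, the gene of its most abundant collagen substrate in bone, had log2 ratios of -6.04, -8.48, -7.86, -5.73 and -7.16 in the Perthes rabbits and -8.71, -7.89 and -6.78 in the controls. These values overlapped widely, and the difference of 0.74 had p = 0.393 in the exact two-sided permutation test before and after adjustment. It was 0.28 without control rabbit 1, 1.25 without control rabbit 3, 0.49 without Perthes rabbit 1 and 0.41 without Perthes rabbit 4, so that its size is not settled.

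**Figure D2:**
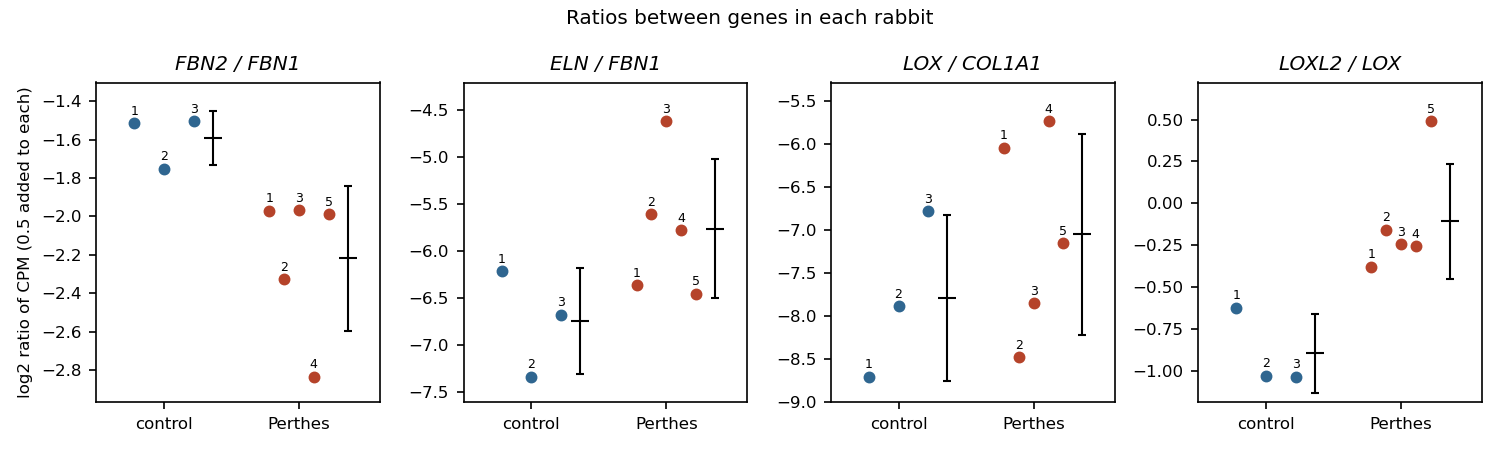
Log2 ratios of CPM (0.5 CPM added to each gene) for *FBN2* to *FBN1*, *ELN* to *FBN1*, *LOX* to *COL1A1* and *LOXL2* to *LOX* in control rabbits 1 to 3 (blue) and Perthes rabbits 1 to 5 (red), numbered, with mean and SD at the right of each group; the axes do not start at 0. The groups are apart for *FBN2* to *FBN1* and for *LOXL2* to *LOX*, with an adjusted p of 0.0714 each, and overlap in the other ratios.

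The genes that work with elastic fibers were read from 3 lists of 56 genes in all, of which 44 were in the table and 43 were tested. Of these, 18 rose and 1 fell in edgeR's test, beside 6.21% and 8.86% of all tested genes, and their median log2 fold change was 0.886. DESeq2 called 23 higher and 1 lower, beside 8.4% and 9.47% of all genes. Without Perthes rabbit 3 edgeR called 8 higher and without Perthes rabbit 5 it called 6, where the shares over all genes were 2.53% and 2.3%. Without control rabbit 1 or control rabbit 2 it called 0 in either direction, where 0.467% and 0% of all genes were called higher and 1.18% and 0% lower, so that the loss was not particular to these lists. The genes *FBN3*, *MFAP2*, *EFEMP2*, *ADAMTSL2*, *ADAMTSL5*, *ADAMTSL6*, *MMP7*, *ELANE*, *PRTN3*, *CTSG*, *CTSL* and *CTSV* were not analysed here, and *TLL2*, with 0 to 62 counts per library, did not pass the filter on low counts.

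**Figure D3:**
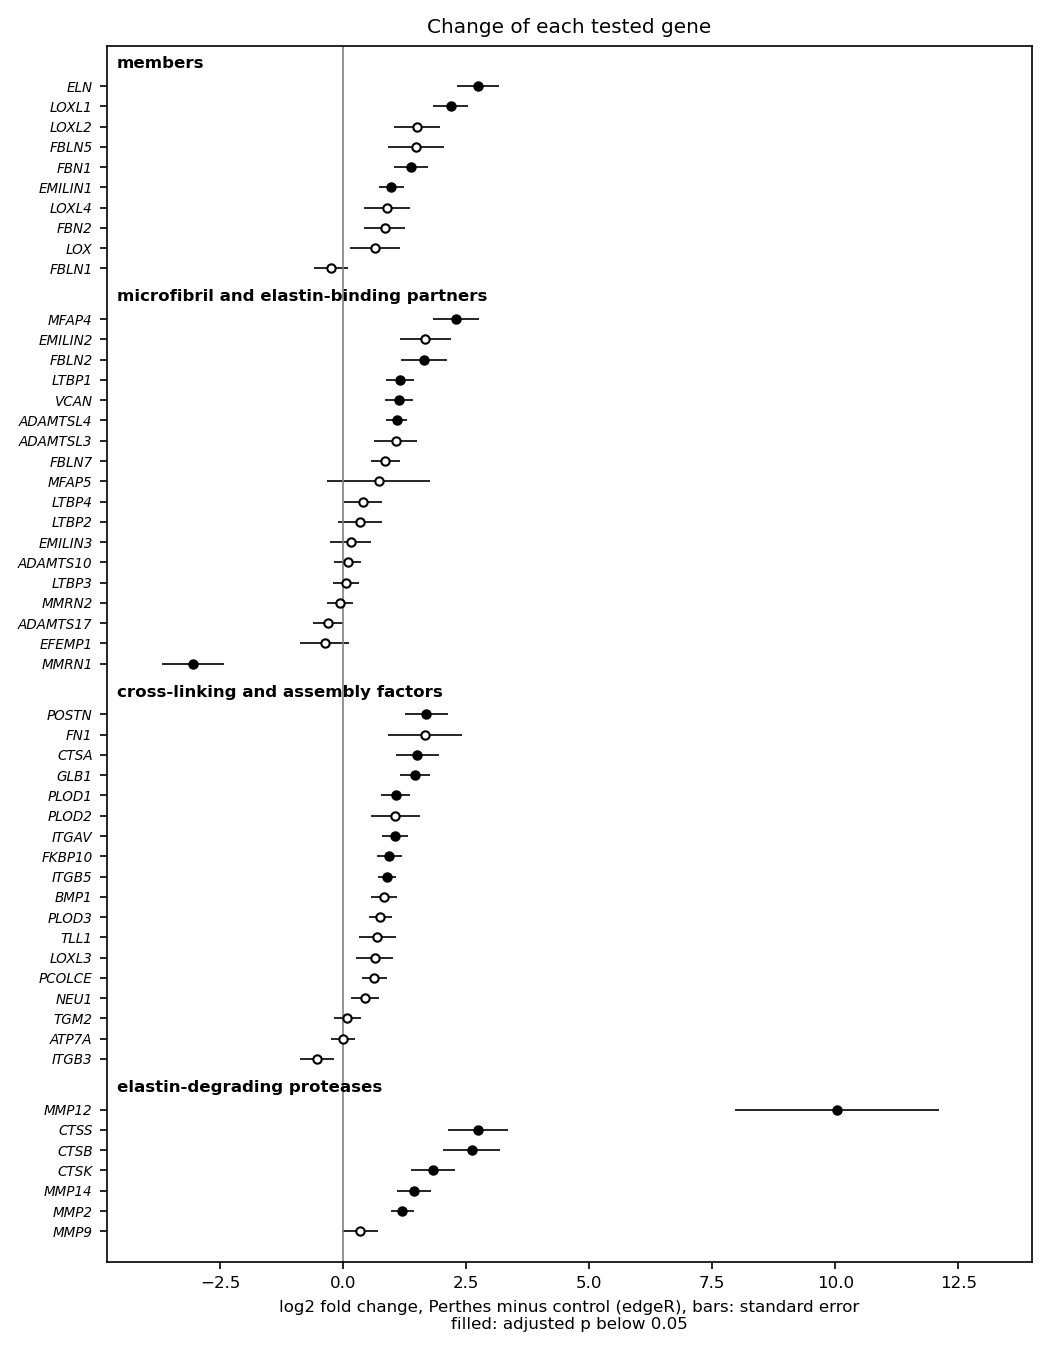
Log2 fold change, Perthes against control, of each tested gene of the 10 elastic fiber and lysyl oxidase genes and of the 3 lists of partner genes, from edgeR's quasi-likelihood test; bars are standard errors and filled points have an adjusted p below 0.05. Filled points lie to the right of 0 except *MMRN1*, and *MMP12* lies far to the right at 10.03.

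Among the microfibril and elastin-binding partners, 18 of 24 were tested, 5 rose and 1 fell, beside 6.21% and 8.86% of all tested genes, and the median log2 fold change was 0.56, beside 0.0249 over all. *MFAP4*, a microfibril-associated protein that binds elastin and fibrillin, was at 54.0, 19.5, 37.5, 22.2 and 44.4 CPM in Perthes rabbits 1 to 5 and at 3.79, 6.63 and 11.3 CPM in the controls. The groups did not overlap, and the rise had a log2 fold change of 2.29 (SE 0.46) and an adjusted p of 0.0164 in edgeR's test. *FBLN2*, a fibulin of vessel walls and developing cartilage, rose by 1.64 (SE 0.47; adjusted p 0.0461 in edgeR). Its controls averaged 12.02 ± 3.43 CPM (SD, n = 3) and its Perthes rabbits 37.4 ± 18.1 CPM (SD, n = 5), although Perthes rabbit 4, at 12.6 CPM, lay below control rabbit 2. *LTBP1*, which stores latent TGF-beta on microfibrils, rose by 1.15 (SE 0.29; adjusted p 0.0301 in edgeR) and *VCAN*, the proteoglycan versican that binds fibrillin, by 1.13 (SE 0.29; adjusted p 0.0306 in edgeR), both without overlap.

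*MMRN1* was the gene of this list that fell. It encodes multimerin 1, a relative of EMILIN1 that is stored in platelets and endothelial cells. It had 0.743, 3.67, 0.698, 1.24 and 0.340 CPM in Perthes rabbits 1 to 5 and 13.0, 9.91 and 10.4 CPM in control rabbits 1 to 3, with every Perthes rabbit below every control. This fall had a log2 fold change of -3.05 (SE 0.63) and an adjusted p of 0.0169 in edgeR's test. Without control rabbit 1 and without control rabbit 2 the 6 called genes of the list were below the threshold no longer, and the adjusted p in edgeR for the named ones then ranged from 0.0585 (*MMRN1*) to 0.155 (*FBLN2*). *LTBP1* was also lost without Perthes rabbits 1, 3 or 5 (adjusted p 0.0509, 0.0642 and 0.0661 in edgeR), *VCAN* without Perthes rabbits 3 or 5 or control rabbit 3 (0.0634, 0.0686 and 0.0608), and *FBLN2* when any 1 rabbit other than Perthes rabbit 4 was left out (0.0635 to 0.155) or with library totals alone (0.0589).

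Of the cross-linking and assembly factors, 18 of 19 were tested, 7 rose and 0 fell, beside 6.21% and 8.86% of all tested genes. At an unadjusted p below 0.05 and also by DESeq2, 10 were higher and 0 lower, beside 15.3% and 8.4% of all genes higher, and the median log2 fold change was 0.855. *POSTN*, the matricellular protein periostin that brings the LOX-activating protease BMP1 to the matrix, measured 1362, 1035, 549, 873 and 901 CPM in Perthes rabbits 1 to 5 and 131, 284 and 466.5 CPM in the controls. It rose without overlap, by a log2 fold change of 1.68 (SE 0.44) with an adjusted p of 0.0341 in edgeR's test. *GLB1*, whose locus also encodes the elastin-binding protein by alternative splicing, rose by 1.45 (SE 0.30; adjusted p 0.0177 in edgeR), and *CTSA*, the protective protein of the same receptor complex, by 1.51 (SE 0.44; adjusted p 0.0480 in edgeR) with 4 of 5 Perthes rabbits above all controls. Counts per gene do not separate the splice forms of *GLB1*. *PLOD1*, which hydroxylates the collagen lysines that lysyl oxidases later use, rose by 1.06 (SE 0.30; adjusted p 0.0440 in edgeR).

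Not all partners of the lysyl oxidases passed the test. *LOXL3*, the remaining family member, had a log2 fold change of 0.64 with an adjusted p of 0.267 in edgeR, *BMP1*, which cleaves the LOX propeptide, 0.82 with 0.0648, and *ATP7A*, the copper pump that supplies these enzymes, -0.01 with 0.986. These 3 genes were singled out for their roles after the values were seen. Among the genes named above, *GLB1* was lost without control rabbits 1 or 2 (adjusted p 0.0695 and 0.0787 in edgeR) and *POSTN* without these (0.0906 and 0.119) or Perthes rabbits 1 or 5 (0.0572 and 0.0683). *PLOD1* was lost without Perthes rabbits 3 or 5 or when 1 of the controls was left out (0.0610 to 0.160) and *CTSA* when any 1 rabbit other than Perthes rabbit 4 was left out (0.0572 to 0.155). Scaling by library totals alone also ended the calls of *PLOD1* and *CTSA* (0.0516 and 0.0618), and omitting the filter on low counts that of *CTSA* (0.0510).

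Of the 13 genes listed as elastin-degrading proteases, 7 were tested, and 6 rose and 0 fell, beside 6.21% and 8.86% of all tested genes, with a median log2 fold change of 1.83. At an unadjusted p below 0.05 and by DESeq2 the counts were also 6 and 0, beside 15.3% and 8.4% of all genes higher. *MMP12*, the metalloelastase of macrophages, had 3784.5, 619, 2078, 64.5 and 2607 CPM in Perthes rabbits 1 to 5 and 0.0715, 0.141 and 4.99 CPM in control rabbits 1 to 3. Perthes rabbits differed 58.7-fold among themselves, with rabbit 4 the lowest, yet all were above the controls, whose libraries held 2, 4 and 150 counts. The log2 fold change was 10.03 (SE 2.07, adjusted p 0.0173 in edgeR). Its size, but not its call, depended mostly on control rabbit 3, which held most of the control counts. Without that rabbit it was 14.01, with an adjusted p of 0.02055 in edgeR.

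Lysosomal cysteine proteases of the same list also rose, and how strongly each of them cleaves elastin is not read from these data. *CTSS* rose by a log2 fold change of 2.74 (SE 0.62; adjusted p 0.0218 in edgeR), with controls at 43.8 ± 14.3 CPM (SD, n = 3) and Perthes rabbits at 293 ± 168 CPM (SD, n = 5). *CTSB* rose by 2.61 (SE 0.58; adjusted p 0.0209 in edgeR) and *CTSK*, the main collagenase of osteoclasts, by 1.83 (SE 0.44; adjusted p 0.0272 in edgeR), all without overlap. Perthes rabbit 4 was the lowest of its group for each of these genes and for *MMP12*, at 60.2 CPM for *CTSS* beside 59.9 CPM in control rabbit 1. Without control rabbit 1 and without control rabbit 2 the adjusted p in edgeR of *MMP12* was 0.0648 and 0.0640, and that of the 3 cathepsins lay between 0.0688 and 0.1001. *CTSS* and *CTSB* were also lost without control rabbit 3 (0.0571 and 0.0530), and *CTSS* and *CTSK* without Perthes rabbit 3 (0.0504 and 0.0580) or 5 (0.0509 and 0.0575).

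Macrophage markers had their lowest sum of the Perthes group in rabbit 4, the rabbit that was also lowest for *MMP12* and the cathepsins named above. The list (5 of 6 genes found by symbol, led by *CSF1R*, none at 0) summed to 1413, 792, 1027, 405 and 1296 CPM in Perthes rabbits 1 to 5 and to 372, 375 and 351 CPM in the controls. Every Perthes rabbit was above the controls, and rabbit 4 only slightly. In edgeR's test 3 of the 5 rose, *CD68* by a log2 fold change of 2.02, *MRC1* by 1.96 and *CSF1R* by 1.07, with adjusted p of 0.0165, 0.0454 and 0.0326, beside 6.21% of all tested genes called higher. *MSR1* and *CD163*, with log2 fold changes of 1.28 and 0.19, did not pass (adjusted p 0.182 and 0.740 in edgeR), and both had Perthes rabbit 4 below every control. The marker not found by symbol was *ADGRE1*. A gene model described as fibrillin-2, LOC103347102, has the ID of *ADGRE1* in RefSeq and was left out of the list. Its groups overlapped, with a log2 fold change of 0.31 and an adjusted p of 0.73 in edgeR's test. Of the tested proteases, *MMP9* did not pass (log2 fold change 0.34, adjusted p 0.558 in edgeR). Its lowest value was 483 CPM in Perthes rabbit 1, where the macrophage sum was highest. The part of macrophage number in the rise of the proteases, *GLB1* and *CTSA* was not tested.

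The genes whose profile over the 8 rabbits was most like that of *ELN* were sought among 8046 named mRNA genes with a mean of at least 10 CPM, by the root mean square difference of centred log2 CPM. They were *P4HA3*, a collagen prolyl hydroxylase subunit, at a difference of 0.404, *IL34*, a ligand of the CSF1 receptor, at 0.441, *PODN*, a small leucine-rich proteoglycan, at 0.461, and *COL8A1*, a collagen of vessel walls, at 0.485. Their log2 fold changes were 2.44, 2.17, 1.95 and 2.19. Because the distance covers all 8 rabbits, genes near *ELN* share its group difference by the way they were chosen, and their rise is not a separate result. *P4HA3* had 33.3, 51.1, 38.8, 26.96 and 40.6 CPM in Perthes rabbits 1 to 5 and 4.97, 5.54 and 10.5 CPM in the controls.

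For *LOX*, the nearest of 8045 genes were *SRPX2* at 0.173, *CAV1*, the coat protein of caveolae, at 0.186, *FMOD*, the collagen-binding proteoglycan fibromodulin, at 0.225, and *RORA*, a nuclear receptor, at 0.229. Their log2 fold changes of 0.67, 0.96, 0.83 and 0.37 follow from the same choice, as does the order of the rabbits. *FMOD* had 827.5, 534, 818, 1780.4 and 763 CPM in the Perthes rabbits and 325, 458 and 816 CPM in the controls.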

How the data were processed

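Total RNA of 8 femoral heads was analysed. Per the labels and the paper's methods, ribosomal RNA was removed from 5 μg RNA per rabbit, directional libraries were sequenced as 150 bp pairs, and the authors mapped reads with HISAT2 2.0.4 and used HTSeq 1.99.2 and RSEM 1.1.17 for quantification. The values deposited are expected counts without normalization, of which up to 10.7% per library were not whole. They were rounded. A further 8 per-sample columns repeat those used and were left out, and 8 small RNA samples were not used. To look for repeats of a library, pairs within a group were compared, and none agreed within sampling noise (chi-square per gene 75.0 to 449.9), which separate animals are bound to exceed.

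R 4.3.3 with edgeR 4.0.16 (and limma 3.58.1) was used for TMM factors, for removing low counts (filterByExpr, by group) and for the quasi-likelihood test with Benjamini-Hochberg adjustment. The SE is the log2 fold change divided by the square root of F. The parts of counting error and of the spread between rabbits in the SE were not separated. Ratios were compared by exact permutation in Python 3.11.15. Log2 CPM used a prior count of 2. The edgeR test was first run on simulated counts, and the permutation test was checked on small made-up sets of values.

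Alternatives were DESeq2 1.42.0, its size factors or library totals in edgeR, no filter or at least 10 counts in every library, the replicate number as a block, each rabbit left out in turn and, for ratios, 0.1 or 2 CPM added. Summed gene models, and the alternatives for single partner genes, were chosen after seeing the data. The members, 3 partner lists and 12 marker lists were chosen with earlier results of these data known. Besides the members, the text names up to 4 genes per partner list and direction with the largest log2 fold change at an adjusted p below 0.05, and the 4 genes most like *ELN* and *LOX*. Other partner genes and markers, passing or not, were named after the values were seen. The symbols *LTBP3*, *LTBP4* and *PLOD3* were matched by gene ID through RefSeq (mOryCun1.1), where 9 of the 10 members have the same ID, and *LOXL1* another.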

Additional observations from a re-analysis of the deposited data

Results flagged for a closer look

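Outlying rabbits were sought in 27 sets of 5 Perthes values, for the members, the ratios and the partner genes named as passing edgeR's test. The distance of the highest or lowest rabbit from its neighbour was divided by the range and set against Dixon's 95% critical value of 0.71. It was larger in 5 sets, where chance alone gives about 1 in 20 if values are normally distributed, which was not tested. Genes were screened in CPM and ratios on the log2 scale, and another scale can flag other sets. Perthes rabbit 4 lay far below its group for *FBLN5*, at 2.29 CPM with the next rabbit at 11.2 CPM (share of the range 0.737), and for *LOXL1*, at 38.6 CPM with the next at 96.8 CPM (0.738). Perthes rabbit 2 lay far above its group for *MMRN1*, at 3.67 CPM against 1.24 CPM (0.731), and for *VCAN*, at 2622 CPM against 1617 CPM (0.717). In Perthes rabbit 5 the log2 ratio of *LOXL2* to *LOX* was 0.49, with the next rabbit at -0.16 (0.746).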

How the results depend on the processing

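The members called higher, 4 in the chosen fit, numbered 4 to 6 with DESeq2, other scalings, other filters and summed gene models, and 0 were called lower under any. With each rabbit left out in turn they numbered 0 to 5, the partner genes called higher 0 to 19 and lower 0 to 1 (18 and 1 in the chosen fit), and all genes called higher 0 to 1267 and lower 0 to 1628 (951 and 1356). With a replicate block, the rabbits' numbers entered as a term, edgeR called 0 members, 0 partner genes and 0 of all genes in either direction, beside 7, 21 and 1504 higher and 0, 1 and 1648 lower at an unadjusted p below 0.05. In that fit Perthes rabbits 4 and 5 have no control of the same number and add nothing to the group difference, so fewer rabbits are compared. The part of this in the missing calls was not tested. No pairing of the rabbits by number is stated in the labels. After subtracting each group's mean, rabbits of equal number correlated at -0.317, 0.161 and -0.238. The 12 other pairs lay between -0.314 and 0.435, with a mean of 0.0319. With only 3 pairs of equal number, these values cannot show whether the numbers pair the rabbits. Without control rabbit 2 the count over all genes was 0 in both directions, with 1624 higher and 2098 lower at an unadjusted p below 0.05. DESeq2 called 1700 of all genes higher. With library totals alone edgeR called 678 higher and 1705 lower, 71.5% of calls lower against 58.8% with TMM, and the median log2 fold change moved by -0.0872. The log2 fold change of *FBLN1* changed sign, to 0.0132 with the block, and ranged from -0.51 to 0.14 with each rabbit left out, and neither another member nor any of the 13 partner genes refitted here changed sign. *LOXL3*, *BMP1*, *ATP7A* and *MMP9* were not followed under the alternatives. Over these members, partner genes and alternatives, a gene called in the chosen fit kept its call and direction in 152 cases and lost the call in 89. A gene not called there gained a call in 5 cases and stayed without one in 85, in 2 of which, both *FBLN1*, the sign changed. The ratios kept their direction in all 10 alternatives each, from -0.71 to -0.47 for *FBN2* to *FBN1*, 0.64 to 0.93 for *LOXL2* to *LOX*, 0.47 to 1.24 for *ELN* to *FBN1* and 0.28 to 1.25 for *LOX* to *COL1A1*, and none passed the adjusted threshold. The low end for *ELN* to *FBN1* came from adding 2 CPM instead of 0.5, and both ends for *LOX* to *COL1A1* from leaving out a control. *MMP12* has no value with at least 10 counts in every library, which control rabbits 1 and 2 do not reach.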
